A study of Mus musculus with 2 samples.

Results

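The genes described here handle iron in and around the mouse cortex: Tfrc, Trf and Slc11a2 (uptake), Fth1 and Ftl1 (storage), and Slc40a1 and Cp (export). These 7 genes were chosen by symbol from the 30905 genes of the matrix, and 6 of the 7 had 20 or more UMIs (unique molecular identifiers, each standing for 1 captured RNA molecule). Trf was listed at 0 UMIs in every barcode.

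The data are droplet RNA sequencing of single nuclei. The tissue was frozen cortex of the cerebrum from untreated C57BL/6 mice, wild type and on a normal diet. There were 2 labelled samples, old (18 months in the labels, 18 to 22 in the series text) and young (2 months, or 2 to 3), and 3 mice were pooled for each. Both samples are in 1 matrix, where a barcode suffix separates library 1 from library 2, and no label says which library is old. No age was assigned to a library here, and with 1 pooled library per age no test could be made.

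Iron circulates bound to transferrin, the product of Trf, and enters cells when transferrin binds the transferrin receptor, the product of Tfrc. In the brain this happens first at the endothelial cells that line the vessels and form the blood-brain barrier. Inside the cell iron is stored in ferritin, a shell of heavy chains (Fth1) and light chains (Ftl1), and leaves through ferroportin (Slc40a1) once a ferroxidase such as ceruloplasmin (Cp) oxidises it. Slc11a2, also called Dmt1, moves iron across endosomal and apical membranes. Cells adjust this system partly after transcription: iron regulatory proteins bind a short RNA hairpin, the iron-responsive element, in the messages of several of these genes.

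A search of the annotated transcripts for such a hairpin found it in 4 of the 7 genes, and the matches are shown because they are the shared sequence that ties storage, uptake and export genes together. The searched form was a C, 5 bases, the loop CAGTGN, and 5 bases able to pair with the 5 before the loop (A with T, G with C, or G with T), on the transcript strand alone. Each line gives 27 bases read from GENCODE vM21 transcripts (GRCm38), with the 6-base loop in capitals.
Fth1, 5′ UTR, chr19:9982733-9982759, plus strand: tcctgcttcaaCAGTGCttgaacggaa
Ftl1, 5′ UTR, chr7:45459780-45459806, minus strand: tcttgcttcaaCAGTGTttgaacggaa
Slc40a1, 5′ UTR, chr1:45925466-45925492, minus strand: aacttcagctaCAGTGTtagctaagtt
Tfrc, 3′ UTR, chr16:32631220-32631246, plus strand: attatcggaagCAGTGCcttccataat
Tfrc, 3′ UTR, chr16:32631599-32631625, plus strand: attatcgggagCAGTGTcttccataat
Tfrc, 3′ UTR, chr16:32631664-32631690, plus strand: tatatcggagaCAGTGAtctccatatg
Tfrc, 3′ UTR, chr16:32631711-32631737, plus strand: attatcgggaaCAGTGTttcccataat
The storage and export genes carried the match before the coding sequence, and the receptor carried 4 matches after it. In Fth1 the match was present in 4 of 5 coding transcripts, in Ftl1 in 1 of 2, in Slc40a1 in 1 of 4 and in Tfrc in 1 of 3. Over all genes with an annotated 5′ UTR, 31 of 20853 held a match (0.149%). Over those with a 3′ UTR, 129 of 21624 held a match (0.597%). Slc11a2, Cp and Trf held no match in this form, which says only that these letters are absent from their annotated UTRs. A match is a description of sequence, and counts of nuclear RNA do not measure binding at it.

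The matrix held 17501 barcodes, 8914 in library 1 and 8587 in library 2, with 58108297 and 60547146 UMIs and medians of 5992 and 6450 UMIs per barcode. After filters on genes, mitochondrial UMIs and doublet score, 16240 nuclei were kept and formed 32 clusters. The clusters gave 10 classes with 20 or more nuclei in each library. Each class led the others in the summed level of its own markers, which is no separate check because those markers named it. The libraries shared 19 barcode sequences, 0 of them with identical UMI totals. Oligodendrocyte nuclei separated by library when clustered again, with 870 of the 893 nuclei of library 1 in 1 sub-cluster and 354 of the 368 of library 2 in the other. Neuronal RNA was also counted in other classes: 7 neuronal genes summed to 9589 to 21546 CPM in endothelial, fibroblast, oligodendrocyte and microglial nuclei and to 35983 and 39981 CPM in excitatory neurons. CPM here means the UMIs of a gene scaled to 1000000 UMIs of all genes, summed over the nuclei of a class in 1 library.

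**Figure D1:**
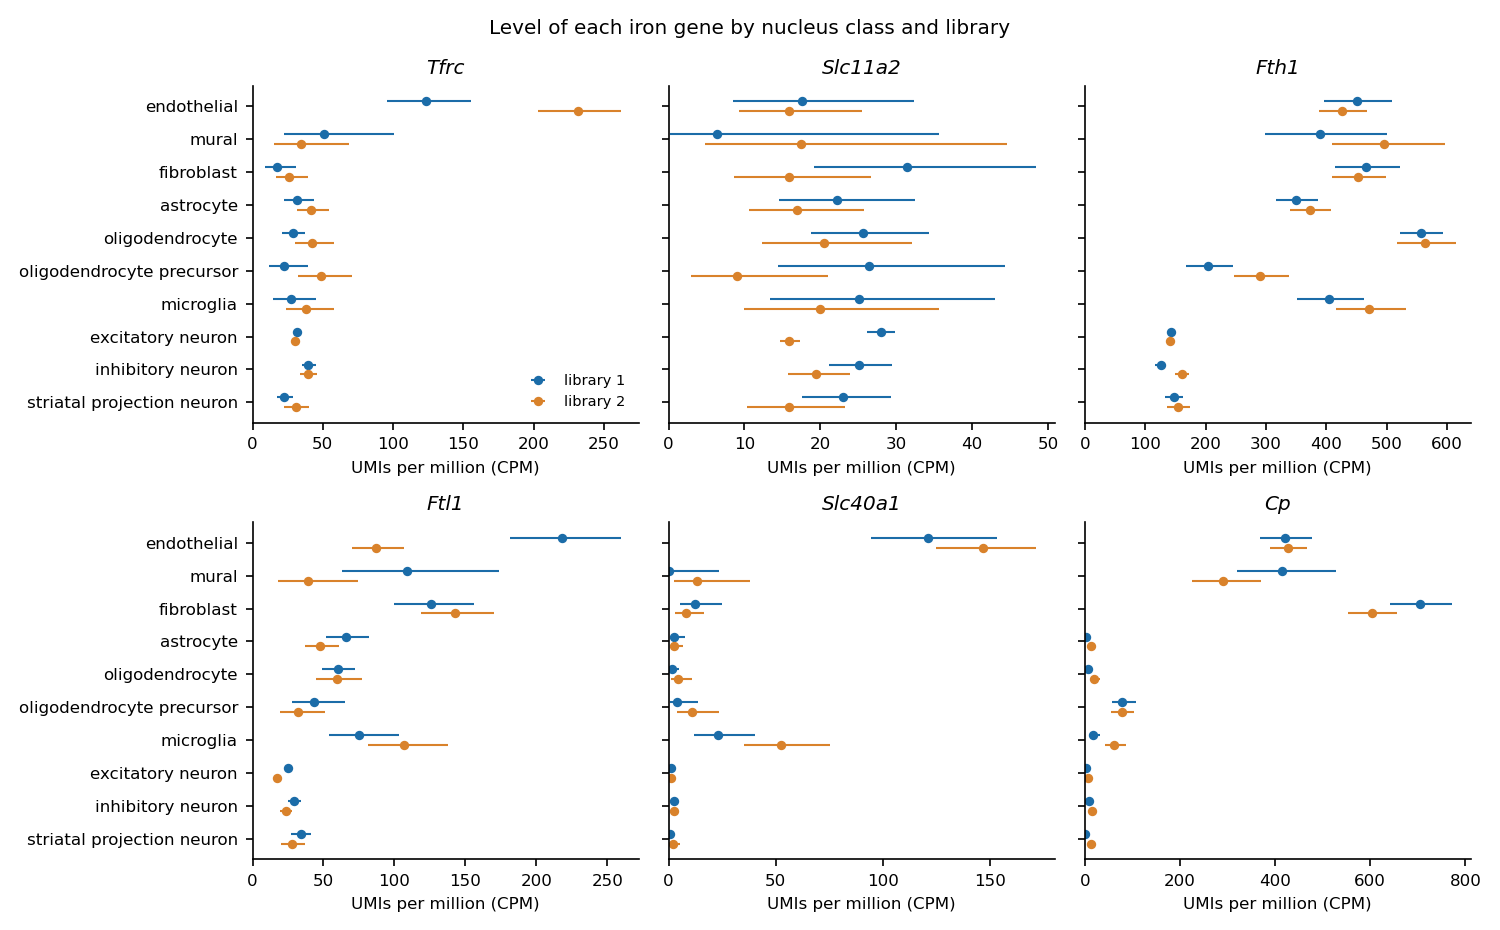
Level of each measured iron gene (CPM, linear axis) in the 10 compared classes. Library 1 and library 2 are separate points, and bars are exact 95% Poisson intervals. Tfrc and Slc40a1 stand highest in endothelial nuclei, Cp in fibroblast nuclei and Fth1 in oligodendrocyte nuclei. For Slc11a2 no neighbouring classes had intervals apart.

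Among the 6 genes with UMIs, 4 had their highest level in the same class in both libraries, against 43.5% of the 18403 genes tested in the same way. These were Tfrc, Slc40a1, Cp and Fth1. For Slc40a1 and Cp the highest class also stood apart from every other by its 95% Poisson interval in both libraries, against 10.1% of all genes. All such intervals cover counting error only, since nuclei of 1 pool are not replicates.

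Tfrc lies at chr16:32608920-32632794 on the plus strand and had 4120 UMIs over all barcodes. It was highest in endothelial nuclei in both libraries, the cells through which transferrin-bound iron reaches the brain. Its level there was 123 CPM in library 1 (70 UMIs in 157 nuclei, interval 95.9 to 155) and 231 CPM in library 2 (247 UMIs in 291 nuclei, interval 203 to 262). Library 2 was higher by 1.88-fold with intervals apart, a gap that ended when sub-clusters led by another class's genes were left out (146 and 208 CPM, with overlapping intervals). For comparison, 21.9% of all genes were higher by more than 1.5-fold in endothelial nuclei of library 2. The endothelial marker list, from which the class was named, summed to 11968 and 13259 CPM.

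The other 9 classes had Tfrc levels of 17.3 to 51.1 CPM in library 1 and 26.1 to 48.6 CPM in library 2. Mural nuclei, the pericytes and smooth muscle around the vessel, had 51.1 CPM in library 1 and 34.8 CPM in library 2 from 8 UMIs each. In library 1 the endothelial interval overlapped that of the mural nuclei (22.1 to 101), so the endothelial level stood apart from all classes in library 2 alone. Inhibitory neurons had 39.8 and 39.4 CPM, excitatory neurons 31.5 and 30.0 CPM. Glial levels were of the same size: astrocytes had 31.6 and 41.6 CPM, oligodendrocytes 28.5 and 42.1 CPM, and microglia 27.1 and 38.0 CPM. Oligodendrocyte precursors had 22.6 CPM from 12 UMIs and 48.6 CPM from 27 UMIs. Fibroblast nuclei were lowest in both libraries, at 17.3 and 26.1 CPM. Below the endothelial class no neighbours in the order had intervals apart in either library.

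Among nuclei thinned to 1500 UMIs, Tfrc was seen in 15.9% of endothelial nuclei in library 1 and 23.4% in library 2, against 4.37% and 4.79% of excitatory neurons. The unthinned endothelial shares were 26.8% and 37.8% at median depths of 2490 and 2626 UMIs. Those of excitatory neurons were 22.9% and 23.3% at 8076 and 8626 UMIs. Without thinning the 2 classes lay closer, although their intervals stayed apart in library 2.

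Within the endothelial class, Tfrc differed by vessel segment. Sub-clusters were called arterial-like, capillary-like or venous-like from marker lists, and the iron genes were kept out of the clustering. Capillary-like nuclei had 192 CPM in library 1 (48 UMIs in 91 nuclei, interval 141 to 254) and 279 CPM in library 2 (108 UMIs in 150 nuclei, interval 229 to 337). Arterial-like nuclei had 23.0 CPM in library 1 from 1 UMI in 17 nuclei (interval 0.583 to 128) and 10.8 CPM in library 2 from 2 UMIs in 62 nuclei (interval 1.31 to 39.2). The capillary-like and arterial-like intervals were apart in both libraries.

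Venous-like nuclei did not repeat between the libraries. They had 35.5 CPM of Tfrc in library 1 from 2 UMIs in 19 nuclei, interval 4.30 to 128, and 271 CPM in library 2 from 37 UMIs in 38 nuclei, interval 191 to 373. The median share of mitochondrial UMIs moved with these segments: 1.27% and 1.26% in arterial-like, 2.53% and 2.31% in capillary-like, and 1.10% and 1.44% in venous-like nuclei. Its part in the Tfrc levels was not tested by segment. In the largest capillary-like sub-cluster the leading genes included Hpca, which is neuronal, so the name rests on the capillary markers.

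The remaining endothelial nuclei, 30 in library 1 and 41 in library 2, fell in sub-clusters led by mural or neuronal genes and stayed unnamed. Their Tfrc levels were 87.0 and 277 CPM. Without them the endothelial level was 146 CPM in library 1 (interval 108 to 191) and 208 CPM in library 2 (interval 175 to 244), and it then stood apart from the mural nuclei in both libraries. In endothelial nuclei with under 1% mitochondrial UMIs, Tfrc was at 79.3 CPM (5 UMIs) and 141 CPM (13 UMIs), with intervals of 25.7 to 185 and 75.1 to 241. Those intervals overlapped other classes in both libraries, such as mural nuclei under 1% (4.62 to 138 and 3.48 to 104). Over all their UMIs, endothelial nuclei had the highest mitochondrial share of the compared classes, 2.51% and 2.49%, against at most 1.75% in the others.

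**Figure D2:**
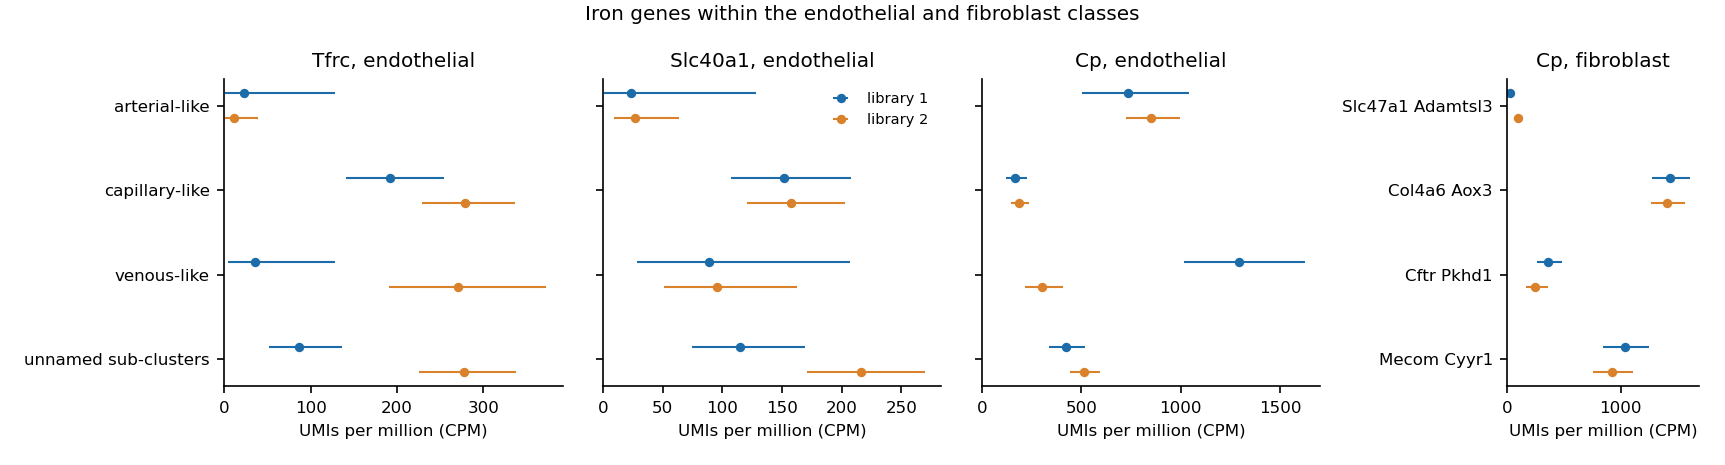
Levels (CPM) of Tfrc, Slc40a1 and Cp in the endothelial sub-clusters and of Cp in 4 fibroblast sub-clusters named by their 2 leading genes, with exact 95% Poisson intervals for each library. Tfrc and Slc40a1 are low in arterial-like nuclei, where Cp is high (737 and 851 CPM), and Cp in fibroblast nuclei runs from 19.4 and 88.8 CPM to 1438 and 1410 CPM.

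Slc11a2 lies at chr15:100387898-100425072 on the minus strand and had 2500 UMIs. It encodes the divalent metal transporter that passes iron out of the endosome after transferrin uptake. Its levels ran from 6.39 to 31.4 CPM across classes in library 1 and from 9.002 to 20.5 CPM in library 2, and no neighbouring classes had intervals apart. Fibroblast nuclei were highest in library 1 (31.4 CPM, 20 UMIs) and oligodendrocytes in library 2 (20.5 CPM, 19 UMIs). Its 5′ end overlaps Gm5475 on the other strand over 7.87% of the gene, and that gene had 15 UMIs.

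Between the libraries Slc11a2 was higher in library 1 in 9 of the 10 classes. The clearest case was the excitatory neurons, with 27.9 CPM in library 1 (933 UMIs, interval 26.2 to 29.8) and 15.9 CPM in library 2 (582 UMIs, interval 14.6 to 17.3). Every excitatory cluster lay between 23.5 and 39.3 CPM in library 1 and between 13.6 and 20.4 CPM in library 2, so these ranges did not overlap. In the same nuclei 22% of all genes were lower by more than 1.5-fold in library 2.

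Trf lies at chr9:103204001-103230444 on the minus strand and encodes transferrin, which in the brain is known as a product of oligodendrocytes and choroid plexus. Its row held 0 UMIs in all 17501 barcodes. Only if Trf reads were counted in this row would that bound the share of barcodes with Trf RNA. Taking 3 barcodes as the limit of a count of 0, the bound would be 0.0337% in library 1 and 0.0349% in library 2. On the same condition, the upper bounds of the exact Clopper-Pearson 95% interval would be 0.0414% and 0.0429%. Oligodendrocyte nuclei were present, 893 in library 1 and 368 in library 2, with a summed marker level of 10346 and 16306 CPM. The annotation around the gene bears on this row. Of the Trf span, 99.5% lies inside Gm20425 (chr9:103190208-103230307), a gene on the same strand that shares most Trf exons and runs on into Srprb. Gm20425 had 4 UMIs and Srprb 764.

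Other genes in the same position were often at 0 as well. Of the matrix genes with 90% or more of their span inside another gene of the same strand, 737 of 935 were at 0 UMIs (78.8%). Of those with none of their span in such a gene, 5455 of 28893 were at 0 (18.9%). Among protein-coding genes alone the counts were 517 of 700 (73.9%) and 2989 of 20456 (14.6%). Prnp, a ferrireductase-related prion protein gene on the pathway list, was also at 0, with 99.9% of its span inside Prn, which had 436 UMIs. How reads in overlapping genes were counted is not given in the sources used here, so the row at 0 gives no level of transferrin RNA in oligodendrocytes or any other class.

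**Figure D3:**
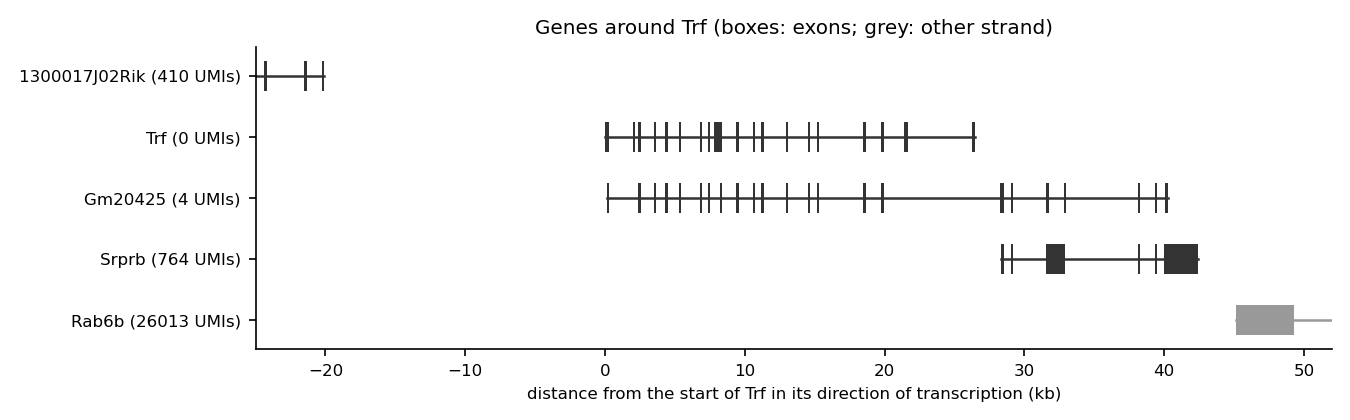
Genes and exons around Trf, drawn to scale as distance in kb from its start site with same-strand and opposite-strand genes marked and the UMIs of each gene over all barcodes. Gm20425 (4 UMIs) covers 99.5% of Trf (0 UMIs) and continues into Srprb (764 UMIs).

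Fth1, the ferritin heavy chain with ferroxidase activity, lies at chr19:9980598-9985098 on the plus strand and had 24273 UMIs. It was highest in oligodendrocytes in both libraries, at 557 CPM in library 1 (976 UMIs, interval 523 to 593) and 564 CPM in library 2 (522 UMIs, interval 516 to 614). A UMI was seen in 53.2% and 56.2% of oligodendrocyte nuclei thinned to 1500 UMIs, against 20.4% and 20.1% of excitatory neurons. Unthinned shares were 61.8% and 73.6% against 67.8% and 71.2%, at median depths of 1876 and 2364 UMIs in oligodendrocytes and 8076 and 8626 UMIs in the neurons.

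The other non-neuronal classes followed closely. Fibroblast nuclei had 466 and 452 CPM, endothelial nuclei 450 and 426 CPM. Microglia, the resident macrophages, had 404 and 471 CPM, mural nuclei 390 and 496 CPM. Astrocytes had 350 and 373 CPM. Oligodendrocytes stood apart from the next class by interval in library 1 alone, and no neighbours among the next 5 classes had intervals apart. Across the wider span astrocytes lay below fibroblast and endothelial nuclei in library 1 and below mural, microglial and fibroblast nuclei in library 2 by interval.

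Below them came a step that both libraries showed. Oligodendrocyte precursors had 204 CPM (interval 167 to 246) and 290 CPM (interval 247 to 338), apart from the astrocytes above and the neurons below. The 3 neuronal classes had 126 to 147 CPM in library 1 and 141 to 161 CPM in library 2. Oligodendrocyte marker genes summed to 284 to 405 CPM in those neurons in library 1 and to 350 to 512 CPM in library 2, against 10346 and 16306 CPM in oligodendrocytes.

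The rank of oligodendrocytes for Fth1 depended on which nuclei were kept. A fibroblast sub-cluster led by Mecom, Cyyr1 and Adgrl4, which are endothelial genes, had 1202 CPM from 8 nuclei and 1013 CPM from 7. With such sub-clusters left out, fibroblast nuclei had 328 and 364 CPM and microglia had 500 CPM (interval 430 to 578) and 541 CPM (interval 471 to 617), so that the oligodendrocyte interval overlapped that of microglia in both libraries. In nuclei with under 1% mitochondrial UMIs oligodendrocytes had 487 and 453 CPM, and in library 2 mural nuclei were then higher at 502 CPM (35 UMIs).

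Fth1 moved with the mitochondrial share inside the classes. It was higher in nuclei with 1% or more mitochondrial UMIs than in those with less in 17 of 20 pairs of class and library. Fibroblast nuclei under 1% had 284 CPM in library 1 and 271 CPM in library 2, and those with 1% or more had 586 and 532 CPM. Excitatory neurons had 127 and 133 CPM under 1% and 182 and 178 CPM above it. In microglia of library 1 the levels were 170 CPM under 1% (24 UMIs in 22 nuclei) and 492 CPM above it. That class also held 10 deep nuclei of library 1 (median 11399 UMIs) in an unnamed sub-cluster led by Adarb2 and Kirrel3. The fibroblast class held the Mecom-led sub-cluster described above. How far these sub-clusters account for the differences by mitochondrial share was not tested. Ftl1 was higher in 17 of 20 pairs, Tfrc in 15, Slc11a2 in 13, Slc40a1 in 12 and Cp in 12. Mitochondrial transcripts are made outside the nucleus, and the part that RNA from outside the nucleus has in these levels was not tested.

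An unnamed cluster gave Fth1 levels above any class. It was led by Tmsb4x, Ubb, Aldoa and Ppia, and Fth1 itself was among its 10 leading genes, which come from the same counts. The cluster held 535 and 728 nuclei. It had median depths of 2111 and 2400 UMIs and median mitochondrial shares of 2.31% and 2.27%. Its Fth1 level was 652 CPM in library 1 and 740 CPM in library 2. It could not be assigned to a cell class from the markers.

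**Figure D4:**
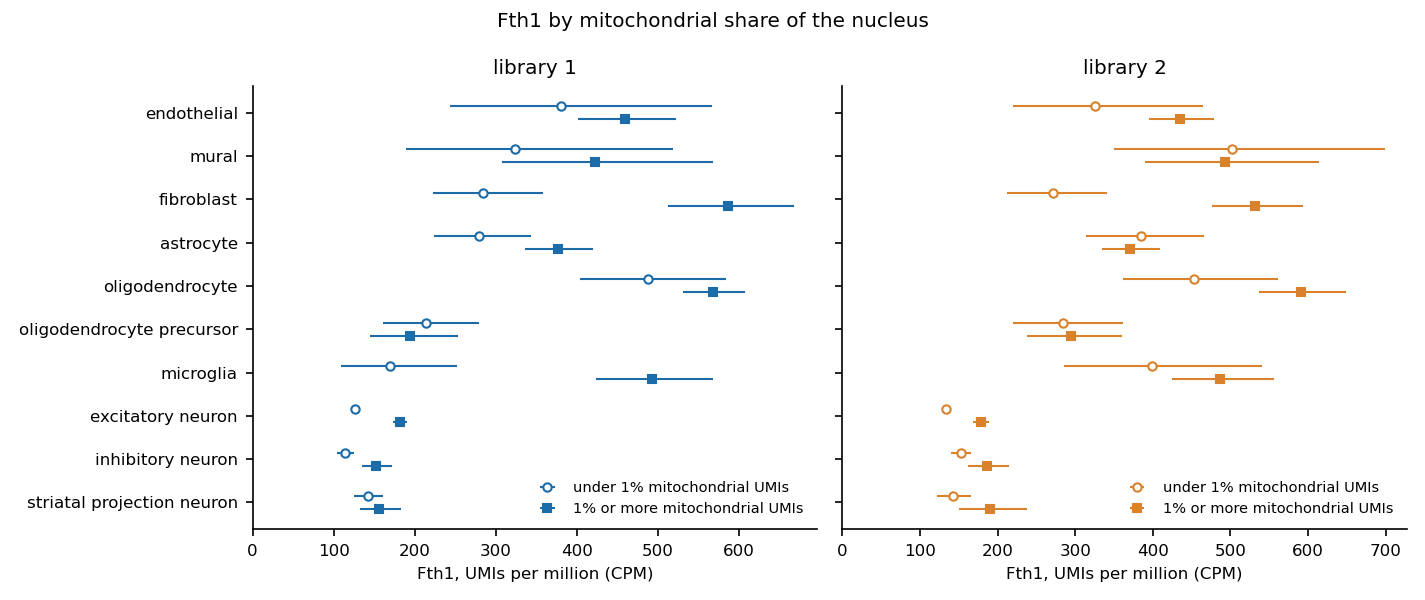
Fth1 level (CPM) in nuclei with under 1% and with 1% or more mitochondrial UMIs, by class and library, with exact 95% Poisson intervals. The level was higher in the nuclei with 1% or more in 17 of 20 pairs of class and library.

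Ftl1, the ferritin light chain that helps form the iron core, lies at chr7:45457944-45459884 on the minus strand and had 3885 UMIs. Its highest class differed between the libraries. Endothelial nuclei led in library 1 at 218 CPM (124 UMIs, interval 181 to 260) but had 87.0 CPM in library 2 (93 UMIs, interval 70.2 to 107), a ratio of 0.40 with intervals apart. In endothelial nuclei 22.9% of all genes were lower in library 2 by more than 1.5-fold. Fibroblast nuclei had 126 and 143 CPM, and led in library 2.

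Blood genes moved with the endothelial Ftl1 level. The list of 6 red cell genes summed to 450 CPM in endothelial nuclei of library 1, with Alas2 at 0, and to 62.7 CPM in library 2. In the other classes it summed to 1.89 to 18.8 CPM in library 1 and 4.35 to 56.7 CPM in library 2. Its part in the Ftl1 level was not tested. The unnamed endothelial sub-clusters had the highest Ftl1 levels, 330 and 128 CPM, and without them the class had 148 CPM (interval 111 to 195) and 66.4 CPM (interval 48.8 to 88.3).

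Microglia had 75.4 and 107 CPM of Ftl1, oligodendrocytes 59.9 and 59.4 CPM, astrocytes 65.7 and 47.8 CPM. Mural nuclei had 109 CPM from 17 UMIs and 39.2 CPM from 9 UMIs. The neuronal classes were lowest in both libraries, from 24.7 to 33.8 CPM in library 1 and from 17.6 to 27.5 CPM in library 2. The heavy chain was thus highest in oligodendrocytes, whereas the light chain was not. Ftl1 has a near-identical copy, Ftl1-ps1, with 81 and 199 UMIs in its own row, and how reads were shared between the copies is not given in the sources used here.

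Slc40a1 lies at chr1:45908068-45926523 on the minus strand and had 565 UMIs, the fewest of the measured genes. It encodes ferroportin, the only known cellular iron exporter in mammals. It was highest in endothelial nuclei, at 121 CPM in library 1 (69 UMIs, interval 94.4 to 154) and 147 CPM in library 2 (157 UMIs, interval 125 to 172). The 2 libraries overlapped, and the endothelial interval stood apart from every other class in both.

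Microglia were the next class, with 23.2 CPM in library 1 (12 UMIs, interval 11.98 to 40.5) and 52.5 CPM in library 2 (29 UMIs, interval 35.2 to 75.4). The endothelial level was 5.23-fold and 2.798-fold higher than this. Fibroblast nuclei had 12.6 and 7.94 CPM. Mural nuclei had 0 UMIs in library 1, where 3 UMIs would give 19.2 CPM, and 3 UMIs in library 2. Excitatory neurons had 1.26 CPM (42 UMIs) and 1.31 CPM (48 UMIs).

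The share of thinned nuclei with a Slc40a1 UMI was 13.8% and 11.9% in endothelial nuclei, 3.93% and 6.02% in microglia, and 0.265% and 0.254% in excitatory neurons. Unthinned, 24.8% and 27.8% of endothelial nuclei had a Slc40a1 UMI. The deeper excitatory neurons had one in 1.11% and 1.19%. Astrocytes and oligodendrocytes held 3 or 4 UMIs in each library, levels of 1.71 to 4.32 CPM.

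Among the named vessel segments Slc40a1 was highest in the capillary-like nuclei. Capillary-like nuclei had 152 CPM in library 1 (38 UMIs, interval 107 to 208) and 158 CPM in library 2 (61 UMIs, interval 121 to 203). Arterial-like nuclei had 23.0 CPM from 1 UMI and 27.1 CPM from 5 UMIs (interval 8.80 to 63.3), so the intervals were apart in library 2 and overlapped in library 1. Venous-like nuclei lay between, at 88.7 CPM (5 UMIs) and 95.1 CPM (13 UMIs), with intervals that overlapped those of capillary-like nuclei in both libraries. Many Slc40a1 UMIs came from the unnamed endothelial nuclei. Without them the class held 44 of its 69 UMIs in library 1 (126 CPM) and 79 of its 157 in library 2 (112 CPM). At sub-cluster resolution 1, an unnamed endothelial sub-cluster of 6 and 7 nuclei was led by Myh11, Pde3a, Lyz2, F13a1 and Mrc1. Of these, F13a1 and Mrc1 were on the macrophage marker list, and its median depths were 10730 and 15879 UMIs. The part of such nuclei in the endothelial Slc40a1 level was not tested.

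The receptor and the exporter were counted together in part of the endothelial nuclei. In library 1, 42 of 157 nuclei had a Tfrc UMI, 39 a Slc40a1 UMI and 17 both. In library 2 the counts were 110, 81 and 43 of 291. Depth was not matched for these counts, and they are given as a description.

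A small macrophage-like sub-cluster inside the microglial class also held Slc40a1, at 92.2 CPM from 2 UMIs in 10 nuclei and 225 CPM from 7 UMIs in 12 nuclei. The microglia-like sub-clusters proper had 24.7 CPM (9 UMIs) and 49.8 CPM (20 UMIs). In endothelial nuclei with under 1% mitochondrial UMIs the Slc40a1 level rested on 3 and 5 UMIs, 47.6 and 54.2 CPM, and its intervals then overlapped those of other classes.

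Cp lies at chr3:19957054-20009145 on the plus strand and had 3140 UMIs. It encodes ceruloplasmin, a copper-bearing ferroxidase that loads exported iron onto transferrin. Fibroblast nuclei had the highest level, 704 CPM in library 1 (449 UMIs in 175 nuclei, interval 641 to 773) and 603 CPM in library 2 (532 UMIs in 189 nuclei, interval 553 to 657). Endothelial nuclei followed at 420 and 427 CPM and mural nuclei at 415 and 292 CPM. The fibroblast interval was apart from both in each library. In nuclei with under 1% mitochondrial UMIs it overlapped that of endothelial nuclei, with 789 CPM against 729 CPM in library 1 and 557 CPM against 423 CPM in library 2.

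Oligodendrocyte precursors had 79.2 CPM (42 UMIs) and 77.4 CPM (43 UMIs). Microglia had 17.4 CPM (9 UMIs) and 61.6 CPM (34 UMIs), apart from the precursors in library 1 and overlapping them in library 2. Astrocytes, which are known for a membrane-bound form of ceruloplasmin, had 3.41 CPM from 4 UMIs and 13.9 CPM from 18 UMIs. Oligodendrocytes had 6.28 and 20.5 CPM. Neurons ran from 1.46 to 8.57 CPM in library 1 and from 6.56 to 15.2 CPM in library 2. The vascular and fibroblast classes were thus far above the rest in both libraries.

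The shares of nuclei ranked the classes differently from the levels, with mural nuclei highest but intervals overlapping. After thinning, a Cp UMI was seen in 39.1% and 38.0% of fibroblast nuclei, 44.1% and 39.8% of mural nuclei, and 33.1% and 35.3% of endothelial nuclei. In excitatory neurons the shares were 0.265% and 1.06%. Without thinning they were 50.3% and 51.9% in fibroblast nuclei and 1.77% and 5.35% in excitatory neurons, at median depths of 2934 and 3357 UMIs against 8076 and 8626.

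Cp divided the fibroblast class. A sub-cluster led by Col4a6 and Aox3 had 1438 CPM in library 1 (296 UMIs in 63 nuclei) and 1410 CPM in library 2 (358 UMIs in 74 nuclei). A sub-cluster led by Slc47a1 and Adamtsl3 had 19.4 CPM (4 UMIs in 68 nuclei) and 88.8 CPM (35 UMIs in 80 nuclei). Another sub-cluster, led by Cftr and Pkhd1, had 362 and 246 CPM. Both libraries kept this order, and the intervals of the 3 groups did not overlap within a library. Nuclei of 1 class therefore differed more in Cp than the class means of fibroblast, endothelial and mural nuclei did.

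Among the named endothelial segments Cp was lowest in the capillary-like nuclei, where Tfrc was highest. Arterial-like nuclei had 737 CPM (32 UMIs, interval 504 to 1040) and 851 CPM (157 UMIs, interval 723 to 995). Capillary-like nuclei had 168 CPM (42 UMIs, interval 121 to 227) and 186 CPM (72 UMIs, interval 146 to 234), apart from the arterial-like in both libraries. Venous-like nuclei differed between the libraries, with 1295 CPM (73 UMIs in 19 nuclei, interval 1015 to 1628) and 300 CPM (41 UMIs in 38 nuclei, interval 215 to 407). In library 1, 15 of the 19 venous-like nuclei had a Cp UMI, and in library 2, 22 of the 38.

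In classes with little Cp, library 2 was higher. Excitatory neurons had 2.07 CPM in library 1 (69 UMIs, interval 1.61 to 2.61) and 6.56 CPM in library 2 (240 UMIs, interval 5.75 to 7.44), a ratio of 3.18, while 17.2% of all genes were higher by more than 1.5-fold in those nuclei. Microglia, oligodendrocytes and the inhibitory and striatal projection neurons also had higher levels in library 2 with intervals apart, 5 classes in all. For microglia this ended when sub-clusters led by another class's genes were left out, with 22.0 CPM (8 UMIs, interval 9.49 to 43.3) and 42.3 CPM (17 UMIs, interval 24.7 to 67.8). Vascular markers moved the same way in the excitatory neurons: the endothelial list summed to 25.3 and 60.2 CPM and the mural list to 16.8 and 46.1 CPM, whereas the fibroblast list summed to 24.2 and 22.0 CPM. Their part in the Cp level was not tested. The 3′ part of Cp overlaps Hps3 on the other strand over 25.3% of the gene, and Hps3 had 1927 UMIs and levels of 14.9 and 14.3 CPM in the excitatory neurons.

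A wider list of 55 genes in 8 groups placed these genes in their pathway, and 43 of them had 20 or more UMIs over the compared classes. For 22 of the 43 (51.2%) the highest class was the same in both libraries, against the 43.5% of all genes given above. For 3 of the 43 the interval was apart from every other class in both libraries (6.98%, against 10.1%). By class, 6 of the 43 (14.0%) were highest in endothelial nuclei in both libraries, against 6.42% of all genes. Fibroblast nuclei also led for 6 (14.0%), against 6.3% of all genes. Microglia led for 4 (9.30%, against 6.43%) and oligodendrocytes for 3 (6.98%, against 4.04%). Among the microglial calls, Meltf rested on 1 and 2 UMIs in microglia, and another gene on 5 and 3. Mural nuclei, oligodendrocyte precursors and striatal projection neurons led for 1 each (2.33%), against 4.63%, 2.72% and 3.16% of all genes. The striatal call rested on 2 and 5 UMIs in that class. Astrocytes, excitatory neurons and inhibitory neurons led for 0, against 4.22%, 2.46% and 3.12% of all genes. These counts are small and depended on the nuclei kept and the classes formed. With a mitochondrial limit of 1%, mural nuclei and microglia formed no class, and fibroblast and endothelial nuclei shared a cluster. The list then had 10 genes highest in endothelial nuclei and 1 in fibroblast nuclei. In the original classes cut to nuclei under 1% mitochondrial UMIs, the counts were 6 and 4.

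**Figure D5:**
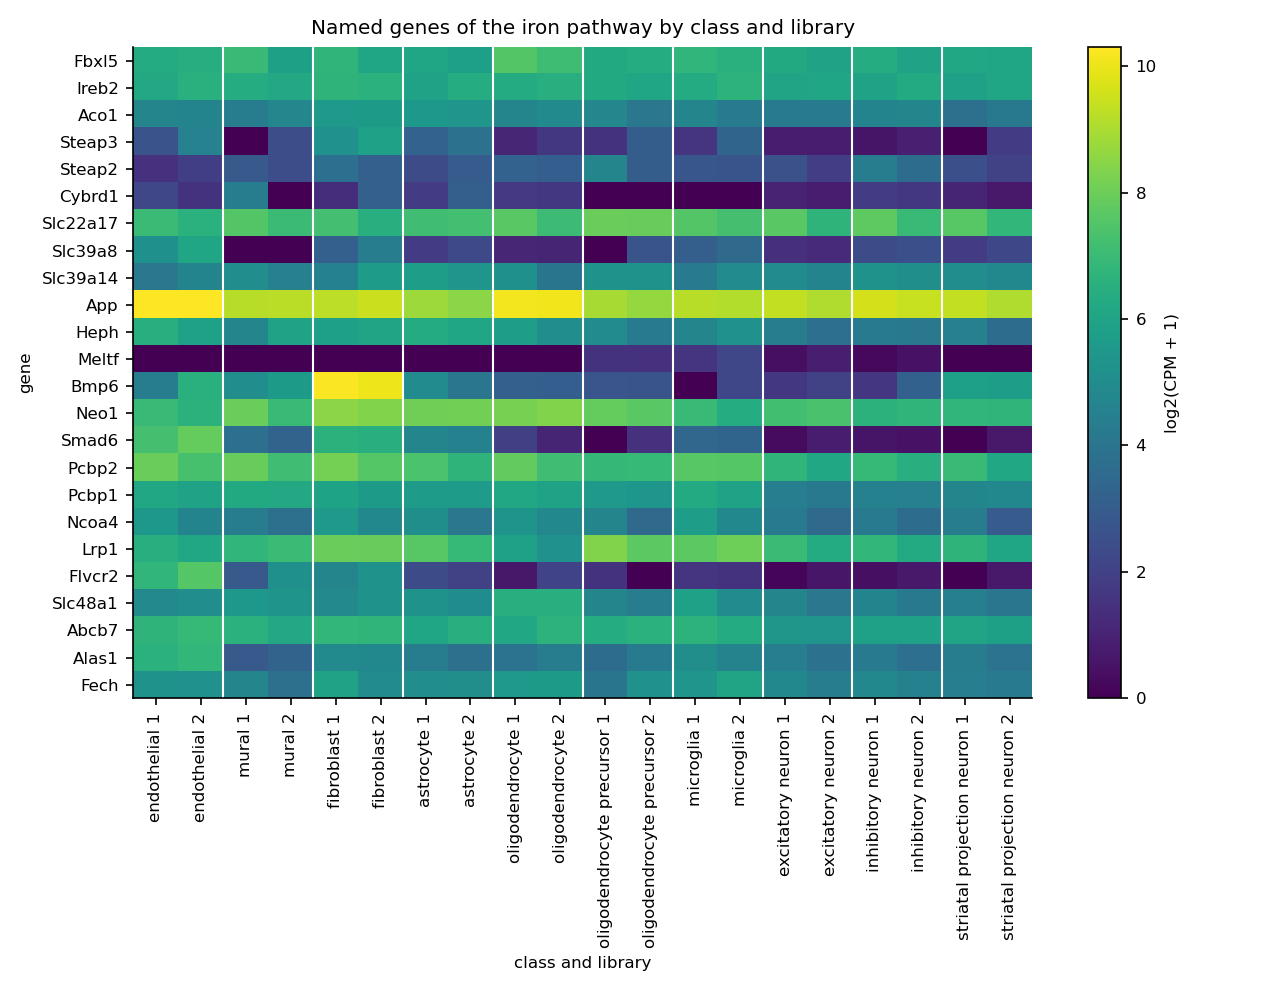
Level of each named pathway gene in each compared class and library, as log2(CPM + 1). Bmp6 is brightest in fibroblast nuclei (1207 and 1058 CPM), and Flvcr2, Smad6 and Alas1 are brightest in endothelial nuclei.

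Of the 3 genes listed with the iron regulatory proteins, 2 had the same highest class in both libraries. The share over all genes was 43.5%, and it stands beside every group count that follows. Fbxl5, which targets iron regulatory protein for degradation when iron is plentiful, was highest in oligodendrocytes at 188 and 138 CPM. Aco1, the gene of iron regulatory protein 1, was highest in fibroblast nuclei at 47.1 and 47.6 CPM. Ireb2 had its highest level in different classes. Of the 3 measured ferrireductases, 1 had the same class in both: Steap3, which reduces iron in the endosome, at 36.1 and 57.8 CPM in fibroblast nuclei.

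Uptake without transferrin had 4 measured genes, 3 with the same class, against 43.5% of all genes. Slc39a8, a metal importer, was highest in endothelial nuclei at 35.2 and 65.5 CPM. Slc22a17, a receptor for lipocalin, was highest in oligodendrocyte precursors at 249 and 238 CPM. Of the ferroxidases and relatives, 2 of 3 measured genes had the same class. App, the amyloid precursor protein gene, was highest in endothelial nuclei at 1264 and 1245 CPM, with oligodendrocytes next at 1130 and 1071 CPM. Heph, the membrane ferroxidase hephaestin, was highest in endothelial nuclei in library 1 and in astrocytes in library 2.

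The control of iron by hepcidin signals had 8 measured genes, 6 with the same class, against 43.5% of all genes. These 6 include a call resting on 5 and 3 UMIs in microglia. They also include a call resting on 2 and 5 UMIs in striatal projection neurons. Bmp6, the ligand that drives hepcidin in the liver, was highest in fibroblast nuclei at 1207 and 1058 CPM with intervals apart from all other classes. Neo1 was highest there as well at 369 and 328 CPM. Smad6, an inhibitor of that signal, was highest in endothelial nuclei at 151 and 234 CPM. Hamp, hepcidin itself, had 4 UMIs over the compared classes and was not measured. Among iron chaperones and ferritin turnover, 1 of 3 measured genes had the same class, Pcbp2 in fibroblast nuclei at 282 and 192 CPM.

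Haem genes had 10 measured members, 4 with the same class, near the 43.5% of all genes. Flvcr2, a transporter of the brain endothelium, had 109 and 192 CPM in endothelial nuclei, apart from all other classes in both libraries. Slc48a1, which moves haem out of the lysosome, was highest in oligodendrocytes at 87.9 and 87.5 CPM. Of the 9 mitochondrial iron genes, 3 had the same class, a share below the 43.5% of all genes. Alas1, the enzyme that starts haem synthesis, was highest in endothelial nuclei at 94.9 and 113 CPM, apart from the other classes in both libraries.

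The genes whose levels over the 10 classes and 2 libraries were most like each member were listed by Pearson correlation of log2(CPM + 1). These 20 points share libraries, depth and classes, and 13266 genes were searched, so the values are descriptions. Tfrc was most like Cnot6l, Edn1 and Car4, each with r = 0.81. Slc40a1 was most like Lgals9 (0.95), Arap3 (0.93) and St3gal6 (0.91). Cp was most like Akap12 (0.93), Itgb1 (0.92) and Pspc1 (0.91). Fth1 was most like Zfand5 (0.97), Cox8a (0.97) and Ubb (0.96), and Ftl1 most like Rpl17 (0.95), Mob1a (0.95) and Rab1 (0.94). Slc11a2 was most like Tmco6 (0.89), Wdr12 (0.88) and Sirt4 (0.87). Among pairs of the measured iron genes the highest values were for Fth1 with Ftl1 (0.77), Ftl1 with Cp (0.69) and Tfrc with Slc40a1 (0.60).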

How the data were processed

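The authors deposited 1 matrix of UMI counts per gene and barcode for both samples. Per the file headers it was written by Cell Ranger 3.1.0, whereas the submitters' processing notes list Cell Ranger 2.0.1, Seurat 3.1, R 4.0.2 and mm10; the conflict was not settled. Whether intronic reads were counted is not given in the sources used here. All per-sample columns were used.

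Nuclei with 200 or more genes, at most 5% mitochondrial UMIs and a Scrublet score under 0.2 were kept. The score removed 305 and 332 barcodes, because the automatic threshold marked only 0 and 2. Clustering used scanpy 1.11.5 and leidenalg 0.10.2 with 2000 variable genes that excluded the iron genes, 30 components and resolution 1. Classes were named from fixed markers against the 10th percentile over clusters, with 3 or more markers raised; these naming thresholds were set after the clusters were seen. Sub-clusters used resolution 0.5. Levels are summed UMIs as CPM with exact Poisson intervals, and shares have Clopper-Pearson intervals (scipy 1.17.1, 95%). The calling script was checked on simulated counts. No test was run. GENCODE vM21 (GRCm38) gave positions for 30766 of 30905 genes; the authors' annotation may differ.

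The text names the 7 genes, up to 3 pathway genes of highest CPM per group, and the 3 genes most like each member. Members and lists were chosen with earlier results of these data known. Hjv is listed as Hfe2. Alternatives varied the mitochondrial and doublet limits, resolution, weighting, thinning, the UMI minimum, pseudocount and correlation. Some genes are not reported here.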

Additional observations from a re-analysis of the deposited data

How the results depend on the processing

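With 1 pooled library on each side, the limits are counting error and the choice of nuclei. No paired analysis was possible because the labels give 1 sample per age and no replicate numbers. Over all results, 108 values under alternatives moved by less than their interval and 58 moved by more. Values are given for library 1 and then library 2. With a mitochondrial limit of 1%, after which fibroblast and endothelial nuclei shared a cluster and mural nuclei and microglia formed no class, Tfrc in endothelial nuclei was 48.3 and 84.0 CPM, Slc40a1 28.2 and 20.01 CPM, Fth1 in oligodendrocytes 450 and 399 CPM, Ftl1 in fibroblasts 78.2 and 67.7 CPM, Cp 108 and 82.7 CPM, and Slc11a2 in oligodendrocytes of library 2 9.28 CPM; 10 pathway genes were then highest in endothelial nuclei and 1 in fibroblast nuclei. In the original classes cut to nuclei under 1%, an alternative chosen after seeing the data, Tfrc was 79.3 and 141 CPM, Slc40a1 47.6 and 54.2 CPM, Fth1 487 and 453 CPM, Ftl1 55.3 and 63.1 CPM, Cp in library 1 789 CPM, Slc11a2 in library 2 5.40 CPM, and 1 pathway gene was highest in microglia. Leaving out sub-clusters led by another class's genes, also chosen after seeing the data, gave Ftl1 87.6 and 116 CPM and, in library 2, Slc40a1 112 CPM and Cp 553 CPM, with 2 pathway genes highest in microglia. With no mitochondrial limit Cp was 626 and 553 CPM, and 2 pathway genes were highest in microglia. With doublets kept, Cp was 556 and 523 CPM and, in library 2, Tfrc 202 CPM, Ftl1 117 CPM and Slc40a1 121 CPM. With equal weight for every nucleus, Ftl1 was 98.0 and 104 CPM and, in library 2, Slc40a1 111 CPM and Cp 717 CPM. Levels thinned to 1500 UMIs were 95.8 and 107 CPM for Ftl1 and, in library 2, 199 CPM for Tfrc, 101 CPM for Slc40a1 and 717 CPM for Cp. Without thinning, the shares of nuclei were 26.8% and 37.8% for Tfrc, 61.8% and 73.6% for Fth1, 24.6% and 25.4% for Ftl1, 24.8% and 27.8% for Slc40a1, and 50.3% and 51.9% for Cp. Of the 18 genes most like the members, 6 remained with Spearman correlation and 11 with a pseudocount of 10 CPM. With a doublet score limit of 0.15 the oligodendrocyte precursors formed no class. Except where the alternative's own construction shows it, the cause was not tested.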
